A study of Homo sapiens with 4 samples.

Results

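Genes of the TNF and TRAIL receptor system, 10 in number, were followed in the breast cancer cell line MDA-MB-231 Fluc after cordycepin treatment. They were taken from the deposited comparison by gene symbol, and all 10 were found among its 13957 genes. They comprise 5 death receptors (*TNFRSF1A*, *TNFRSF10A*, *TNFRSF10B*, *TNFRSF21* and *FAS*), the TRAIL decoy receptor *TNFRSF10D*, the TWEAK receptor *TNFRSF12A*, and the adaptors and regulators *TRADD*, *RIPK1* and *CFLAR*.

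Death receptors are membrane proteins of the TNF receptor superfamily that carry a death domain in the cytoplasm. When ligand binds, the domain recruits adaptors such as TRADD and FADD, and the complexes that form lead either to NF-κB activation and survival or to caspase activation and cell death. Decoy receptors bind ligand but lack a functional death domain, whereas RIPK1 and the caspase-8-like protein FLIP, encoded by *CFLAR*, influence which of these outcomes follows. TRAIL receptors have been studied widely as drug targets in breast cancer cells.

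Both groups consisted of MDA-MB-231 Fluc cells, a derivative of a triple-negative breast tumour line that carries a firefly luciferase gene. One group (n = 2) received 50 μM cordycepin, which is 3′ deoxyadenosine, for 2 h and the other (n = 2) received the vehicle DMSO for the same time. No ligand of these receptors was added according to the sample descriptions. These descriptions also do not say whether the duplicates were separate cultures, so the spread behind the p-values may be only technical. RNA was sequenced after depletion of ribosomal RNA, and the authors' table lists every gene with its log2 fold change (cordycepin relative to DMSO), its mean expression in log2 CPM (read counts scaled to library size), and the F statistic and p-values of their test.

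The table has no column for single libraries, so neither the sequencing depth nor an SD between duplicates can be stated, and no value per sample is shown. An approximate SE of each log2 fold change was therefore taken from its F statistic, with a 95% interval. Across the table the F statistics and p-values imply 47.5 degrees of freedom for most genes, of which 2 can come from 4 libraries in 2 groups. The remaining 45.5 were borrowed from the other genes, so the p-values and the intervals lean on a spread shared across genes. Each of the 10 genes had an approximate SE between 0.854 and 1.13 times the median of genes at like mean expression.

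The expected cell line markers *VIM*, *CD44*, *AXL* and *FOSL1* were all in the table, and *ESR1* and *PGR* were not among its genes. Of 8 genes listed as probably low in this line, the other 6 were in the table, with *KRT19* at a mean of 8.34 log2 CPM, *ERBB2* at 6.49, *GATA3* at 4.48, *CDH1* and *EPCAM* at 3.68 each and *CLDN3* at 1.84. The approximate SEs of *CDH1*, *EPCAM*, *GATA3* and *CLDN3* were 5.72, 4.30, 4.11 and 2.11 times the median SE of genes at like expression, and those of *KRT19* and *ERBB2* were 0.983 and 0.862 times it. Among the first 4 of these, *GATA3*, a luminal transcription factor gene, fell, with a log2 fold change of -2.91 (adjusted p = 1.88e-13 in the authors' test). *CDH1* at 0.23, *EPCAM* at 0.34 and *CLDN3* at -0.40 did not pass that test. Of the expected markers named, *FOSL1* had -2.18, whereas *VIM*, *CD44* and *AXL* had 0.40, 0.37 and 0.37. A wide spread was not confined to genes listed as low. The ratio was 2.69 for *CD44*, 1.79 for *VIM*, 1.18 for *FOSL1* and 0.748 for *AXL*, and 2.38 for the housekeeping gene *B2M*. The part of this wider spread in the values below was not tested.

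To show regulatory sequence beside the values, the 250 bases before a transcription start were read from RefSeq (GRCh38.p14) for *RIPK1*, which had the lowest fold change of the 10 genes, for *TNFRSF1A*, which fell to a lesser degree, and for *TNFRSF21*, which did not fall. *RIPK1* has 3 windows in RefSeq, of which the farthest upstream is shown, and the others have 53.6% and 68.4% GC. Windows were used for 5 of the 10 genes, *CFLAR*, *FAS*, *RIPK1*, *TNFRSF1A* and *TNFRSF21*. Capitals mark matches on either strand to 6 motifs, which were the GC box (GGGCGG), the AP-1 site (TGANTCA), the CRE (TGACGTCA), the TATA box (TATAAA), the E-box (CACGTG) and the κB site. The *RIPK1* window lies on the plus strand at chr6:3063717-3063966, the *TNFRSF1A* window on the minus strand at chr12:6342077-6342326 and the *TNFRSF21* window on the minus strand at chr6:47309906-47310155, each written 5′ to 3′ up to the base before the start.
RIPK1: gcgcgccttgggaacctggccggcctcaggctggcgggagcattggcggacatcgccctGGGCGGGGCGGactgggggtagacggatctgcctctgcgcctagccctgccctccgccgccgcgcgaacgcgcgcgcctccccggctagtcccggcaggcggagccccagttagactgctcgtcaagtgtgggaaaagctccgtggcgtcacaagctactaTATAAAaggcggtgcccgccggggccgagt
TNFRSF1A: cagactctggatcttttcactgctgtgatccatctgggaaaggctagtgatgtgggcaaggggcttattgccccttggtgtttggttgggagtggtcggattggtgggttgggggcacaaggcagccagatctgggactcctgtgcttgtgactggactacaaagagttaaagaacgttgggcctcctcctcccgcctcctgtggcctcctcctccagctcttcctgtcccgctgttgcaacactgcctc
TNFRSF21: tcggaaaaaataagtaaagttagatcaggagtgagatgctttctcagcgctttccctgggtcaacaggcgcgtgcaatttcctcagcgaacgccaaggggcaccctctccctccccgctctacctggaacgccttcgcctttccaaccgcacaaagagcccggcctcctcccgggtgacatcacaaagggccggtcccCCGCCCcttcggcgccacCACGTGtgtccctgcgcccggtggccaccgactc

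In the *RIPK1* window shown, 2 overlapping GC boxes start at positions -191 and -186 and a TATA box at position -30. The *TNFRSF1A* window held none of the 6 motifs, and the *TNFRSF21* window held a GC box at -52 and an E-box at -34. Among the windows not shown, those of *CFLAR* held a κB site at -97, an AP-1 site at -160 and GC boxes, though not every window held a match. Those of *FAS* held a κB site at -157, an AP-1 site at -242 and GC boxes. The other *RIPK1* windows held GC boxes only. Of all 35116 windows, 42.6% hold a GC box, 10.7% a TATA box, 6.34% an E-box, 6.57% an AP-1 site, 8.04% a κB site and 1.65% a CRE. The GC content was 70.4% for *RIPK1*, 56.8% for *TNFRSF1A* and 62.0% for *TNFRSF21*, and the median of all windows was 58.0%. These matches describe the letters of the windows and not binding.

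Of the 10 genes, 2 were at or below -1 on the log2 scale with an unadjusted p of 0.05 or less, thresholds that the study states for volcano plots of its other experiments, and these were *RIPK1* and *TNFRSF12A*. For comparison, 12.4% of all genes in the table were lower by the same thresholds. None of the 10 was higher by the same thresholds, as were 0.0502% of all genes. These shares stand for 1735 lower and 7 higher genes in the table. The study gives larger counts for this experiment in both directions, most of all for higher genes. Its legend for the experiment states no thresholds, so the shares used here as background depend on the borrowed ones. Without a minimum fold change, 8 of the 10 fell when the adjusted p had to be 0.05 or less, which 37.2% of all genes did, and 1 rose, compared with 40.2% of all genes. The gene that did neither was *TRADD*. The median log2 fold change of the 10 genes was -0.37, and that of all genes was 0.04. In bulk libraries such as these, a lower share of reads from fewer expressing cells cannot be told apart from less RNA per cell.

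**Figure D1:**
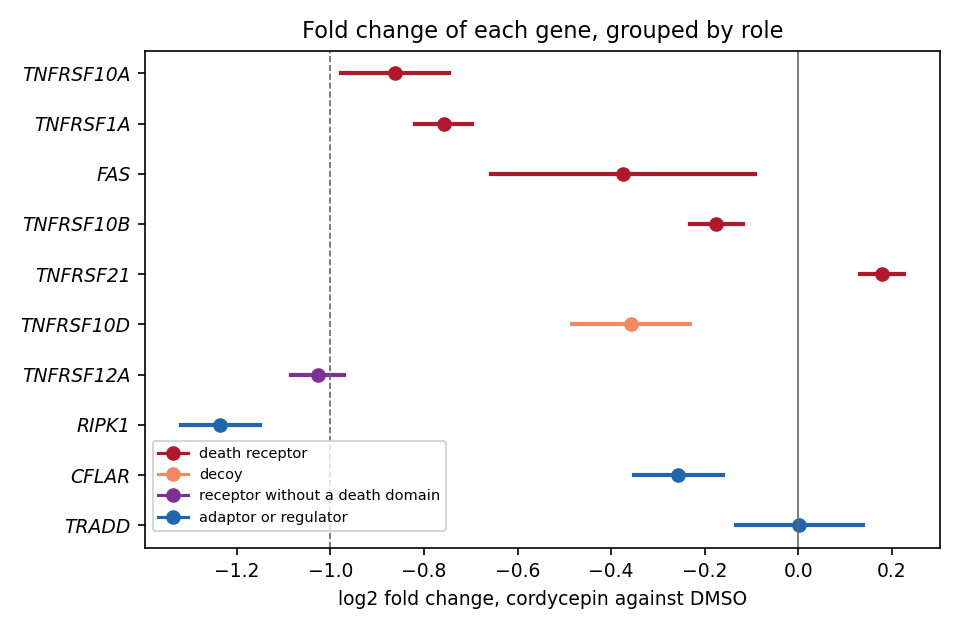
Log2 fold change of cordycepin against DMSO for each gene (points, x axis), in rows grouped by role, with approximate 95% intervals (lines); the dashed line marks -1 and the solid line 0. *RIPK1* and *TNFRSF12A* lie below -1, *TRADD* lies at 0 and *TNFRSF21* lies above 0.

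The receptor for TNF itself, *TNFRSF1A* (ENSG00000067182, chromosome 12, 6328757 to 6342114, GRCh38), fell to 59.1% of its DMSO level. Its log2 fold change was -0.76, with an approximate SE of 0.031 and a 95% interval of -0.82 to -0.70 (adjusted p = 1.19e-27 in the authors' comparison). TNF receptor 1 is found on most cell types and is the main route by which soluble TNF acts on epithelial cells. Of the 2097 windows of 75 bases, the read length, in its canonical transcript, 0 occurred in transcripts of other genes.

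The 2 death receptors for TRAIL, the ligand encoded by *TNFSF10*, differed in size of response. *TNFRSF10A*, which encodes DR4 (chromosome 8, 23190452 to 23225102), fell to 55.0% of DMSO, with a log2 fold change of -0.86 (approximate SE 0.058, 95% interval -0.98 to -0.75, adjusted p = 8.72e-19). *TNFRSF10B*, which encodes DR5 (chromosome 8, 23020133 to 23069031), fell to 88.5%, with a log2 fold change of -0.18 (approximate SE 0.028, 95% interval -0.23 to -0.12, adjusted p = 2.55e-07). The difference between them was 0.69, with an approximate 95% interval of 0.56 to 0.82 when the SEs of both genes are treated as independent.

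The decoy receptor DcR2, which binds TRAIL but has a truncated death domain, is encoded by *TNFRSF10D* (chromosome 8, 23135588 to 23164027). Its log2 fold change of -0.36 (approximate SE 0.062, 95% interval -0.48 to -0.23, adjusted p = 1.29e-06) lay between those of both death receptors for TRAIL. On the same terms it lay 0.50 above *TNFRSF10A* (95% interval of the difference 0.33 to 0.68) and 0.18 below *TNFRSF10B* (95% interval 0.04 to 0.32), so it differed from both by more than the approximate error. The 3 genes lie in the same orientation within 205 kb of chromosome 8, in the order *TNFRSF10B*, *TNFRSF10D* and *TNFRSF10A* along the plus strand coordinates. Although they are related in sequence, windows of 75 bases shared with any other gene made up 0% of the *TNFRSF10A* transcript, 0.153% of *TNFRSF10B* and 0.116% of *TNFRSF10D*, and in no case was the other gene a TRAIL receptor. The second TRAIL decoy gene, *TNFRSF10C*, was not among the genes of the table.

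*FAS*, the receptor for Fas ligand, was the least abundant of the genes, with a mean expression of 1.66 log2 CPM. Its log2 fold change was -0.37, with the widest interval, from -0.66 to -0.09 (approximate SE 0.14, p = 0.0103, adjusted p = 0.0143 in the authors' comparison). *FAS* overlaps other genes in GENCODE release 44, namely *ACTA2* on the opposite strand, listed at 1.22 log2 CPM with a log2 fold change of 0.13 (adjusted p = 0.405), and *STAMBPL1* on the same strand, listed at 4.95 log2 CPM with a log2 fold change of -0.75 (adjusted p = 2.92e-21). The *FAS* locus in the deposited table, chromosome 10, 88990531 to 89017059, is shorter than in this release, and the sources used here do not state how reads in shared stretches were counted.

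*TNFRSF21*, which encodes the death receptor DR6 (chromosome 6, 47231532 to 47309905), was the only one of the 10 genes to rise. It reached 113% of DMSO, with a log2 fold change of 0.18 (approximate SE 0.023, 95% interval 0.13 to 0.23, adjusted p = 1.51e-09). This direction depends on the scaling of the libraries. Relative to the median of the genes above the median of mean expression, which was itself 0.13, the value was 0.05, and relative to the median of 12 housekeeping genes, which was 0.41, it was -0.24 and thus reversed.

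*TNFRSF12A* encodes Fn14, the receptor for TWEAK, which is induced by growth factors in many cells and signals through TRAF proteins without a death domain. It was the most strongly reduced receptor of the 7, at 49.1% of DMSO. Its log2 fold change was -1.03 (approximate SE 0.029, 95% interval -1.09 to -0.97, adjusted p = 2.28e-34), so its interval included the minimum fold change of -1. The gene lies on chromosome 16 (3018445 to 3022383) and was among the more highly expressed, at 7.14 log2 CPM. When the table was divided by mean expression into 4 bins of equal size, *TNFRSF12A* was in the highest bin, where 2.78% of genes had a lower fold change. Its ligand gene *TNFSF12* had a log2 fold change of 0.39 (approximate SE 0.059, adjusted p = 6e-08), which became -0.02 on the housekeeping scale.

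Among the adaptors and regulators, the 3 genes covered the range from the largest change to none. *RIPK1* (ENSG00000137275, chromosome 6, 3063991 to 3115187), the kinase that scaffolds NF-κB activation at TNF receptor 1 and can also start apoptosis or necroptosis, fell to 42.5% of DMSO. Its log2 fold change was -1.23 (approximate SE 0.042, 95% interval -1.32 to -1.15, adjusted p = 6.39e-31). *CFLAR* (chromosome 2, 201116154 to 201176687), which encodes the caspase-8 inhibitor FLIP, fell to 83.7%, with a log2 fold change of -0.26 (approximate SE 0.047, 95% interval -0.35 to -0.16, adjusted p = 3.23e-06). *CFLAR* has 24 annotated transcripts, and a value per gene cannot separate those for the long and short forms of FLIP.

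*TRADD* (chromosome 16, 67154185 to 67159909), the adaptor that links TNF receptor 1 to RIPK1 and TRAF2, had a log2 fold change of 0.00 (approximate SE 0.067, adjusted p = 0.976). The 95% interval of -0.13 to 0.14 corresponds to 91.2% to 110.0% of the DMSO level, so a change of the size seen for *RIPK1* or *TNFRSF1A* lay outside it. On the alternative scales its value was -0.13 and -0.41. The receptor, its adaptor and the kinase that joins them in one complex therefore had log2 fold changes of -0.76, 0.00 and -1.23.

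Ranked by log2 fold change, the order from lowest was *RIPK1*, *TNFRSF12A*, *TNFRSF10A*, *TNFRSF1A*, *FAS*, *TNFRSF10D*, *CFLAR*, *TNFRSF10B*, *TRADD* and *TNFRSF21*. Of the 9 neighbouring pairs in this order, 5 had a difference whose approximate 95% interval, with the SEs treated as independent, did not include 0. These were *RIPK1* and *TNFRSF12A* (difference 0.21), *TNFRSF12A* and *TNFRSF10A* (0.17), *TNFRSF1A* and *FAS* (0.38), *TNFRSF10B* and *TRADD* (0.18), and *TRADD* and *TNFRSF21* (0.18). The other 4 pairs, *TNFRSF10A* with *TNFRSF1A*, *FAS* with *TNFRSF10D*, *TNFRSF10D* with *CFLAR* and *CFLAR* with *TNFRSF10B*, did not differ beyond these errors, which are not adjusted for the number of pairs. By role, the 5 death receptors had a median of -0.37 and ranged from -0.86 to 0.18, and the 3 adaptors and regulators had a median of -0.26 and ranged from -1.23 to 0.00. The decoy, at -0.36, lay inside the range of both groups. Single genes are not replicates of a role, and no difference between roles was tested.

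**Figure D2:**
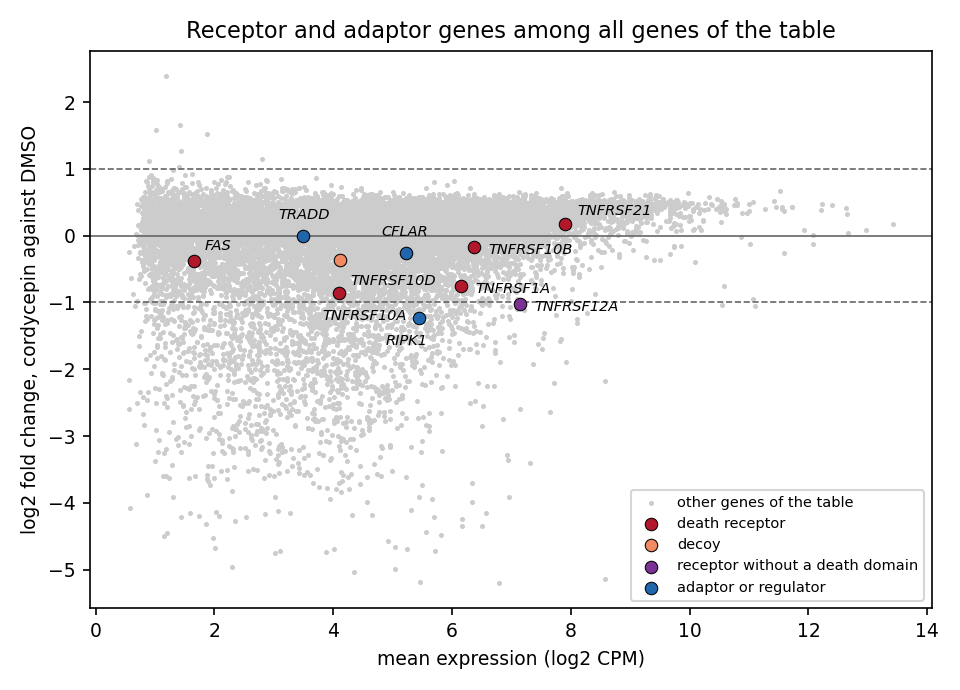
Log2 fold change (y axis) against mean expression in log2 CPM (x axis) for all 13957 genes of the table (grey) and the 10 genes, coloured by role; dashed lines mark -1 and 1. The 10 genes lie between -1.23 and 0.18, while the lowest gene of the table is at -5.19.

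Counted from the lowest log2 fold change of the 13957 genes, *RIPK1* ranked 1377 and *TNFRSF12A* ranked 1689. The share of genes called lower differed with mean expression, at 16.2%, 19.8%, 10.8% and 2.89% from the lowest to the highest of the 4 bins. Of the 10 genes, 1, 3, 2 and 4 were in these bins. Both *TNFRSF12A* and *TNFRSF1A* were in the highest bin, where the median log2 fold change was 0.22, and 4.50% of its genes lay below *TNFRSF1A*. *TNFRSF10A* was in the second lowest bin, where 22.8% of genes lay below it. On the scale relative to genes above the median of mean expression, *TNFRSF10A* had -0.99 and *TNFRSF1A* -0.89, and on the housekeeping scale they had -1.28 and -1.17, past the minimum fold change.

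Levels were compared between genes as CPM per kb of the gene length in the deposited table. The levels in each group were computed from the mean expression and the fold change and are approximations, as the table gives neither group. The lengths merge the transcripts of a gene, so the order of genes at similar levels depends on the length used: the table gives *TNFRSF12A* 1801 bases and its canonical transcript has 977, and *TNFRSF10A* has 2927 and 2690. *TNFRSF12A* was highest in DMSO, at 105 CPM per kb, and its implied level in cordycepin was 51.6. *TNFRSF21* followed, at 62.4 in DMSO and 70.6 in cordycepin. *TNFRSF1A*, *TNFRSF10B* and *RIPK1* had 22.3, 17.5 and 14.7 CPM per kb in DMSO, and 13.2, 15.5 and 6.26 in cordycepin.

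Within the TRAIL receptors, the level of the death receptor *TNFRSF10A* went from 7.51 to 4.13 CPM per kb, while that of the decoy *TNFRSF10D* went from 5.52 to 4.31. The cordycepin levels of both were too close to be ordered. *TNFRSF10B* was the most abundant of the 3 TRAIL receptors in both groups by this measure. *TRADD* had 5.20 CPM per kb in DMSO and 5.21 in cordycepin. *CFLAR* had 1.82 and 1.52, with a length of 22479 bases in the table against 14612 for its canonical transcript. *FAS* had 0.64 and 0.49.

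**Figure D3:**
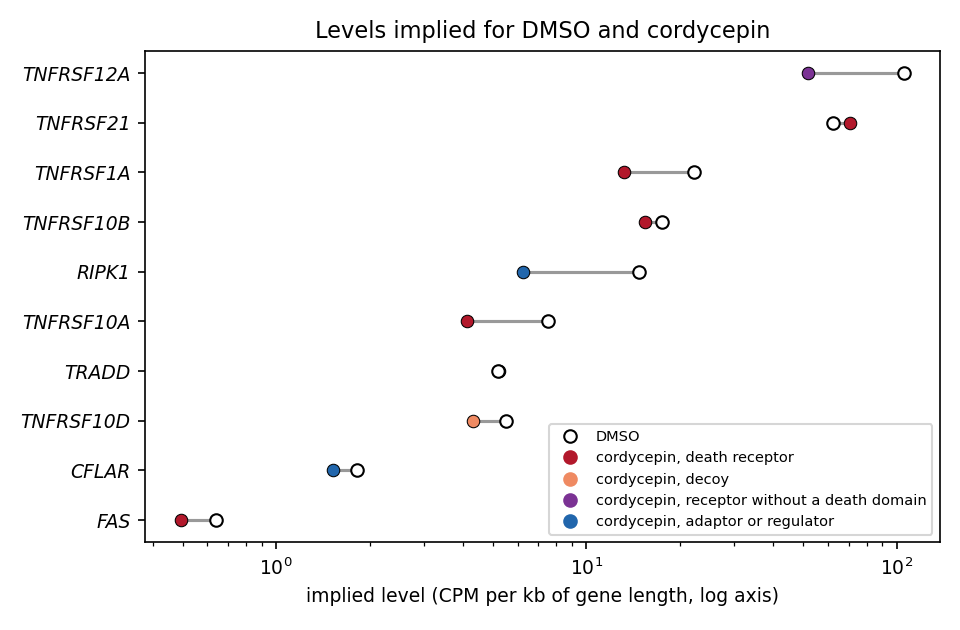
Implied level of each gene in DMSO (open circles) and cordycepin (filled circles, coloured by role), in CPM per kb of gene length on a log axis, ordered by mean level. *TNFRSF12A* has the highest level in DMSO (105) and *FAS* the lowest (0.64), and the open circle of *TRADD* covers its filled one.

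Features of the genes that were not used to choose them also varied. In GENCODE release 44, the genes span from 3.94 kb (*TNFRSF12A*) to 78.4 kb (*TNFRSF21*), around a median of 34.4 kb for 11579 protein-coding genes of the table with a 3′ UTR. The 2 shortest, *TNFRSF12A* and *TRADD* (5.73 kb), had log2 fold changes of -1.03 and 0.00. The canonical 3′ UTR was 541 bases for *TNFRSF1A*, 557 for *TNFRSF12A*, 464 for *TRADD*, 1848 for *RIPK1* and 12714 for *CFLAR*, compared with a median of 1372.

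The AU-rich nonamer TTATTTATT, a motif of unstable mRNAs, was present in the canonical 3′ UTRs of *TNFRSF10B*, *TNFRSF10D* and *CFLAR*, and in those of 9.85% of the protein-coding genes. The share was 14.1% of the genes called lower and 9.16% of the others. These 3 genes had log2 fold changes of -0.18, -0.36 and -0.26, and neither *RIPK1* nor *TNFRSF12A*, which were past the threshold, carried it. 

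The site in *CFLAR* is shown as an example of this motif in the longest 3′ UTR of the 10 genes. It lies on the plus strand at chr2:201167059-201167087 (GRCh38), with the nonamer in capitals.
CFLAR: attttatgatTTATTTATTtttctatttc

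Other genes of the receptor pathways were then examined with lists written from general knowledge, at a time when earlier results of these data were known. The wider TNF receptor superfamily had 17 of 29 listed genes in the table, including the 7 receptors above. Among the other 10, 1 fell and 2 rose by adjusted p, with 37.2% and 40.2% of all genes doing so. Several of these 10 were in the lowest bin of mean expression, such as *TNFRSF18* at 0.90 log2 CPM and *TNFRSF25* at 1.08. Their approximate SEs were 0.16 and 0.19, so small changes in them could not be resolved. The median log2 fold change of these other receptors was 0.10. The gene that fell was *RELT*, with a log2 fold change of -1.48 (approximate SE 0.058, adjusted p = 4.24e-28), lower than any of the 7 receptors. *CD40*, a receptor best known from B cells, had a log2 fold change of 0.23 (adjusted p = 3.94e-06) and -0.19 on the housekeeping scale, and *TNFRSF19* had 0.28 (adjusted p = 0.0131) and -0.14 on that scale.

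Of 18 ligand genes, 5 were in the table, and *TNF* and *FASLG* were not among them. *TNFSF10*, which encodes TRAIL, had a log2 fold change of -0.30 (approximate SE 0.11, adjusted p = 0.00985). *TNFSF9*, the ligand gene for the lymphocyte receptor CD137, fell the most, with -1.87 (approximate SE 0.17, adjusted p = 3.09e-14), at a low mean expression of 1.52 log2 CPM. By adjusted p-value 2 of the 5 ligand genes fell and 1, *TNFSF12*, rose, with 37.2% and 40.2% of all genes doing so. *TNFSF13* at 0.05 and *TNFSF18* at -0.64 did not pass.

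The TRAF genes encode adaptors and ubiquitin ligases, some of which TNF receptors bind directly, and the table held all 7. Their median was -0.89 on the log2 scale, and 3 of the 7 (42.9%) were called lower, with 12.4% of all genes as background. *TRAF6*, which also serves Toll-like and interleukin-1 receptors, had a log2 fold change of -3.41 (approximate SE 0.095, adjusted p = 2.48e-34), which is 9.41% of DMSO. *TRAF4* had -1.79 (adjusted p = 1.63e-32) and *TRAF2*, the partner of TRADD at TNF receptor 1, had -1.32 (approximate SE 0.040, adjusted p = 4.02e-33). Of the others, *TRAF1* had -0.89, *TRAF5* -0.20 and *TRAF3* -0.12, each lower by adjusted p (8.89e-11, 0.00031 and 0.000454). *TRAF7* rose, at 0.24 (adjusted p = 5.09e-09), and had -0.18 on the housekeeping scale.

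The complex that assembles at TNF receptor 1 on the membrane, with its ubiquitin ligases, deubiquitinases and kinases, was covered by 24 genes, all in the table. In this list 5 (20.8%, against 12.4% of all genes) were called lower with the minimum fold change, and the median was -0.42. By adjusted p-value 17 fell and 2 rose, with 37.2% and 40.2% of all genes doing so. Besides *RIPK1* and *TRAF2*, the genes past the threshold were *SPATA2*, *BIRC3* and *RNF31*. *SPATA2*, whose product joins the deubiquitinase CYLD to the linear ubiquitin ligase, had a log2 fold change of -3.25 (approximate SE 0.096, adjusted p = 2.38e-33). *BIRC3*, encoding a ubiquitin ligase for RIPK1, had -1.76 (approximate SE 0.082, adjusted p = 2.4e-23), and its relative *BIRC2* had -0.79 (adjusted p = 8.87e-33).

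The subunits of the linear ubiquitin ligase differed among themselves. *RNF31*, encoding the catalytic subunit, had a log2 fold change of -1.85 (approximate SE 0.18, adjusted p = 2.77e-13) at a low mean of 0.86 log2 CPM, whereas *RBCK1* and *SHARPIN* had 0.16 (adjusted p = 1.13e-06) and 0.28 (adjusted p = 5.88e-08), which turned to -0.26 and -0.13 on the housekeeping scale. Among the deubiquitinases, *OTULIN* had -0.96 (adjusted p = 4.36e-28) and *CYLD* -0.04 (adjusted p = 0.483). *TRADD* and *CYLD* were thus among the 5 genes of this complex that did not pass in either direction.

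The death-inducing complex and the caspases were covered by 19 genes. In this list 2 (10.5%, against 12.4% of all genes) were called lower with the minimum fold change, and the median was -0.26. By adjusted p-value 11 fell and 5 rose, with 37.2% and 40.2% of all genes doing so. *FADD*, the adaptor that Fas and the TRAIL receptors need to bind caspase-8, had a log2 fold change of -2.59 (approximate SE 0.062, adjusted p = 2.46e-37), or 16.6% of DMSO. This was below each of the 10 genes described above. *CASP8AP2*, named for its association with caspase-8 and known for histone mRNA processing, had -1.09 (adjusted p = 3.02e-25). *CASP8* itself had -0.34 (approximate SE 0.056, adjusted p = 3.42e-07), and its inhibitor *CFLAR* had -0.26. The difference of 0.09 had an approximate 95% interval of -0.06 to 0.23. *CYCS*, which encodes cytochrome c, and *PEA15*, whose product has a death effector domain, had 0.39 and 0.38 (adjusted p = 4.15e-23 and 3.13e-23), and both were near 0 on the housekeeping scale, at -0.03 and -0.04.

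**Figure D4:**
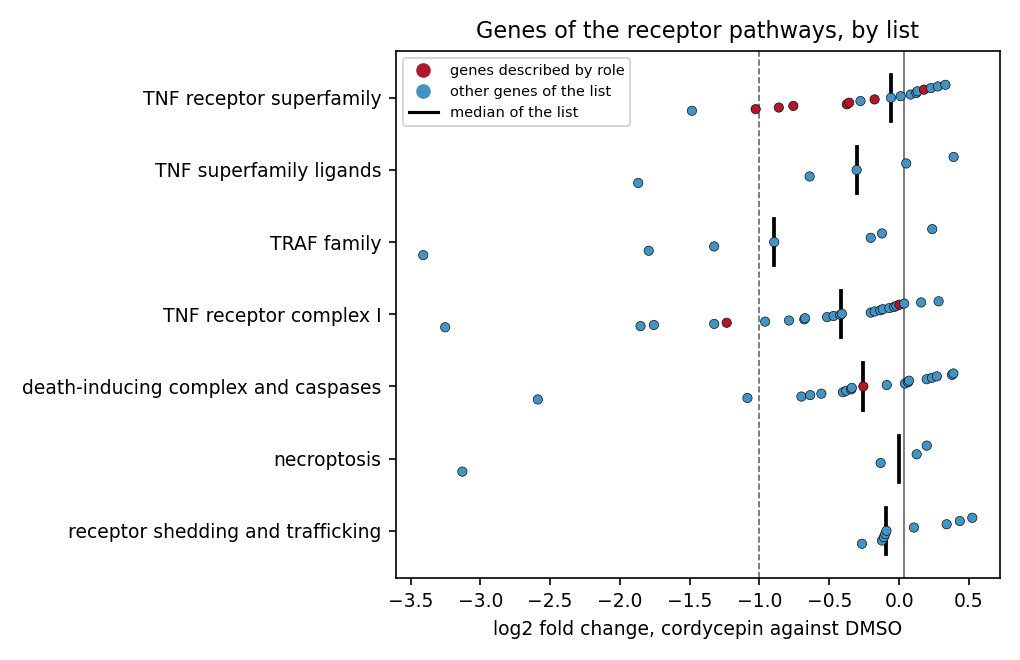
Log2 fold change (x axis) of each gene in 7 lists of receptor pathway genes (rows); red points are the 10 genes described by role, blue points the other genes, short black bars the median of each list, the grey line the median of all genes and the dashed line -1. *TRAF6*, *SPATA2*, *PELI1* and *FADD* lie below -2.5, whereas no receptor lies below -1.48.

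Over these lists together, 73 genes other than the 10 were in the table, with 11 called lower and 0 called higher with the minimum fold change, near the 12.4% and 0.0502% of all genes. Without a minimum fold change, 37 fell and 17 rose by adjusted p-value, with 37.2% and 40.2% of all genes doing so. In mRNA abundance at 2 h, the receptor genes ranged from -1.48 to 0.33 and the TRAF genes from -3.41 to 0.24. The genes of the complex at TNF receptor 1 ranged from -3.25 to 0.28. Those of the death-inducing complex and caspases ranged from -2.59 to 0.39, and all genes of the table from -5.19 to 2.39. Lists are described here by their counts and medians, and no list was tested against the rest of the table.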

How the data were processed

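Reads of 75 bases (paired-end) were mapped to GRCh38.p13 and counted with rsubread, according to the methods of the study. The submitters' processing notes name TopHat, HTSeq, DESeq and Cufflinks with hg38 instead, and which was used for this table is not given in the sources used here. The authors' deposited table holds log2 fold changes, mean log2 CPM values, F statistics (a score of the authors' test), p-values, adjusted p-values and gene lengths. The column names match those that edgeR's quasi-likelihood test writes, although the sources do not name the authors' tool, library scaling or filter on low counts. It has 0 further columns of values per sample, so the authors' own comparison was used and no test between groups was made here.

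From it, the approximate SE was computed as the size of the log2 fold change divided by the square root of F, with intervals from the t distribution at the degrees of freedom that F and p imply (within 1 of 47.5 for 84.8% of genes). Whether the approximate SE and these intervals hold for the libraries behind the table was not tested, because it has no values per sample. Group levels were derived from mean expression and fold change. Differences between genes used both SEs as if independent, although the genes share libraries. The thresholds are those stated for other experiments of the study, as the legend for this one states none. Gene models came from GENCODE release 44 and promoters from RefSeq. Symbols outside the fixed rule (the 10 genes and, in each list, the 4 of lowest p past the threshold in each direction or, where fewer than 2 were past it, the 2 of lowest p in each direction) were named after their values were seen. The genes and lists were chosen with earlier results of these data known. Calculations were made in Python 3.11.15 with scipy 1.17.1 for distributions, numpy 2.4.6 and pandas 2.3.3 for tables, and matplotlib 3.10.9 for plots.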

Additional observations from a re-analysis of the deposited data

How the results depend on the processing

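The 2 of 10 genes past the threshold for lower genes stayed 2 with adjusted p-values and with p of at most 0.001. In both settings 12.4% of all genes were lower. They stayed 2 of 9 without the genes of lowest mean expression (11.2% of all genes). Relative to the genes above the median of mean expression they stayed 2 of 10 (14.2%). Among only the genes above that median they were 2 of 6, where 6.84% of all genes were lower. Of the 10 genes, 4 were lower with a minimum log2 fold change of 0.5 (22.3% of all genes) and 8 with none (37.2%), where 1 gene was higher (40.2%). Relative to the housekeeping median, an alternative chosen after seeing the data for these counts, 4 of the 10 were lower (20.02%). The 11 of 73 other pathway genes that were lower became 20 with a minimum of 0.5 (1 higher, 4.97% of all genes), 37 with none (17 higher) and 18 on the housekeeping scale. Above the median of mean expression they were 3 of 38, where 6.84% of all genes were lower. The log2 fold change of *TRADD* turned to -0.13 and -0.41 on the alternative scales and that of *TNFRSF21* to -0.24 on the housekeeping scale. No paired analysis was possible because single libraries have no values in the table used here. Leaving out a replicate and another normalization were therefore not run, and the depth behind each value is unknown.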

Other observations

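Genes whose products act on the receptors after synthesis were described in the same way. Of 9 genes for receptor shedding and trafficking, 0 were past the threshold in either direction, compared with 12.4% of all genes lower and 0.0502% higher. Above the median of mean expression, where 7 of the 9 lay, 6.84% of all genes were lower. A count of 0 among so few genes is near these shares. By adjusted p-value 2 fell and 4 rose, with 37.2% and 40.2% of all genes doing so. The median log2 fold change of the 9 was -0.09. *ADAM17*, which encodes the protease that sheds TNF receptors, had -0.12 (adjusted p = 0.0159 in the authors' edgeR-like comparison), and its relative *ADAM10* had 0.43 (adjusted p = 1.41e-28), near 0 at 0.02 on the housekeeping scale. *ITCH*, which encodes a ubiquitin ligase, had -0.27 (adjusted p = 1.89e-14).

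Of 6 genes listed for necroptosis, 4 were in the table and *RIPK3* was not among them. *PELI1*, which encodes a ubiquitin ligase, had a log2 fold change of -3.13 (approximate SE 0.19, adjusted p = 2.96e-20) at a mean of 1.38 log2 CPM, whereas *MLKL*, which encodes the effector of membrane rupture, had 0.20 (adjusted p = 0.0326) and -0.22 on the housekeeping scale.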
